A study of Homo sapiens with 6 samples.

Results

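The genes described here are 10 protein-coding neighbours of ERBB2 in bands q12 to q21 of chromosome 17, with ERBB2 itself left out. They were taken by symbol from the deposited count table (MED1, CDK12, PPP1R1B, STARD3, TCAP, MIEN1, GRB7, GSDMB, ORMDL3 and PSMD3), and all 10 were found among its 29744 symbols. All 10 also passed the filter on low counts, which kept 14958 symbols. They were chosen for their place on the chromosome, to see whether they shifted together between 3 lines. MKN45, a widely used line from a gastric cancer, is labelled sensitive. HER2R (source name MKN45-HER2) is resistant to HER2-TCB, a T cell bispecific antibody that binds the receptor encoded by ERBB2. CEAR (source name MKN45-CEAR) is resistant to CEACAM5-TCB, which binds the surface glycoprotein CEACAM5. No treatment is listed for any line, each line is described as cultured cells with 2 libraries, and nothing says whether a line is 1 clone or whether its libraries came from separate cultures. The p-values therefore measure only the spread between these libraries, which may be technical. The labels leave unsaid whether the name MKN45-HER2 means HER2R or an engineered parent of it. DNA was not measured, so every value below is a level of RNA, and in bulk RNA fewer cells that express a gene cannot be told apart from less RNA per cell.

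ERBB2 and the genes beside it are known for being amplified together in part of gastric and breast cancers. The amplified segment usually carries GRB7, MIEN1, STARD3 and PGAP3 with ERBB2 and often reaches further to either side. When a segment is gained, the RNA of most of its expressed genes tends to rise together, while genes switched on or off singly move without their neighbours. The 10 genes do unrelated work. GRB7 is an adaptor that binds activated receptor kinases such as HER2, and MIEN1 is a membrane-anchored protein linked to cell migration. STARD3 is a cholesterol transporter of late endosomes, and ORMDL3 restrains the first step of sphingolipid synthesis. MED1 is a subunit of the Mediator complex, and CDK12 is a kinase of elongating RNA polymerase. PSMD3 is a lid subunit of the regulatory particle of the proteasome. PPP1R1B, also called DARPP-32, is an inhibitor of protein phosphatase 1 best known from neurons of the striatum. GSDMB is a gasdermin, a family whose members can open pores in membranes, and TCAP is a titin-binding protein of striated muscle.

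On GRCh38 the genes run from MED1 (chromosome 17, 39404285 to 39451286, minus strand) to PSMD3 (39980797 to 39997960, plus strand), per GENCODE 29. CDK12 (39461511 to 39564907, plus) begins 10224 bases beyond MED1. PPP1R1B (39626740 to 39636626), STARD3 (39637065 to 39663484) and TCAP (39664187 to 39666555) follow each other on the plus strand, 438 and 702 bases apart. ERBB2 (39687914 to 39730426, plus) comes next. MIEN1 (39728496 to 39730787, minus) lies over the far end of ERBB2 on the other strand, and 571 exonic bases are common to both, 24.9% of the exonic bases of MIEN1. Whether counting used the strand is not given in the sources used here, so reads from that stretch cannot be told apart. GRB7 (39737927 to 39747291, plus) starts 7139 bases further on. GSDMB (39904595 to 39919854) and ORMDL3 (39921041 to 39927601) lie on the minus strand.

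Promoter windows from RefSeq (GRCh38.p14, 250 bases before to 50 after the annotated start) matched 6 of the 10 genes. The windows of STARD3 and MIEN1 are shown because these genes flank ERBB2, one on each side, and only the first passed the test in a line described below. STARD3 is at chr17:39636894-39637193 on the plus strand, and MIEN1 at chr17:39730483-39730782 on the minus strand. Capitals mark matches on either strand to GGGCGG (the GC box) and to CACGTG (the E-box).
STARD3: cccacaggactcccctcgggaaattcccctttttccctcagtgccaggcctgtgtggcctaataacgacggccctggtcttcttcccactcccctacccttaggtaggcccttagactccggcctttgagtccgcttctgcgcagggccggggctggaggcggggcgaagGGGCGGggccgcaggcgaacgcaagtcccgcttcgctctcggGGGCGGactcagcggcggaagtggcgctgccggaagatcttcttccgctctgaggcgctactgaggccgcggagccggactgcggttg
MIEN1: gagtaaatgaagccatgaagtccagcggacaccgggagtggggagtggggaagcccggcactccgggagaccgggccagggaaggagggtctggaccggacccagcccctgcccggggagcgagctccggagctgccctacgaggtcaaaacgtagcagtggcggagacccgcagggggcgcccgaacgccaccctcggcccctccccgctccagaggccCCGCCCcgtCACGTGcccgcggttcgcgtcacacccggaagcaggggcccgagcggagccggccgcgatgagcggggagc
The STARD3 window held 2 GC boxes, and the MIEN1 window 1 GC box and 1 E-box. Neither held TATAAA or CCAAT. No searched motif overlapped another in these windows. Of 35116 windows of the same length, 45.0% held a GC box, 7.30% an E-box, 11.5% TATAAA and 34.6% CCAAT on either strand.

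Levels are given per library in CPM, edgeR's depth-scaled count unit, with library totals over the tested genes scaled by TMM factors. Library totals ran from 39657353 to 57964246 counts, and 1 count was worth 0.0177 to 0.0255 CPM. The defining epithelial markers were abundant, with 6 of 6 tested and a summed level of 8369 to 15625 CPM. None of the T cell markers had enough counts to be tested (0 of 6 found), and their sum was 0.0354 to 0.357 CPM. Per kilobase of exon, PPP1R1B had the highest mean level over all libraries of the 10 genes, at 70.6 CPM per kb, followed by PSMD3 at 40.8. CDK12 at 16.02, MED1 at 16.01, MIEN1 at 14.5 and ORMDL3 at 13.4 CPM per kb came next, and these 4 differed by less than the libraries of MED1 differed among themselves. GRB7 at 7.04, STARD3 at 5.99 and GSDMB at 1.23 CPM per kb were lower. TCAP was lowest, at 0.161 CPM per kb. The order was not the same in each line: besides CDK12 and MED1, which changed places, PSMD3 (49.7) was above PPP1R1B (47.1 CPM per kb) in HER2R and STARD3 (6.35) above GRB7 (6.02 CPM per kb) in CEAR. ERBB2 stood at 9.39 CPM per kb on the same scale.

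**Figure D1:**
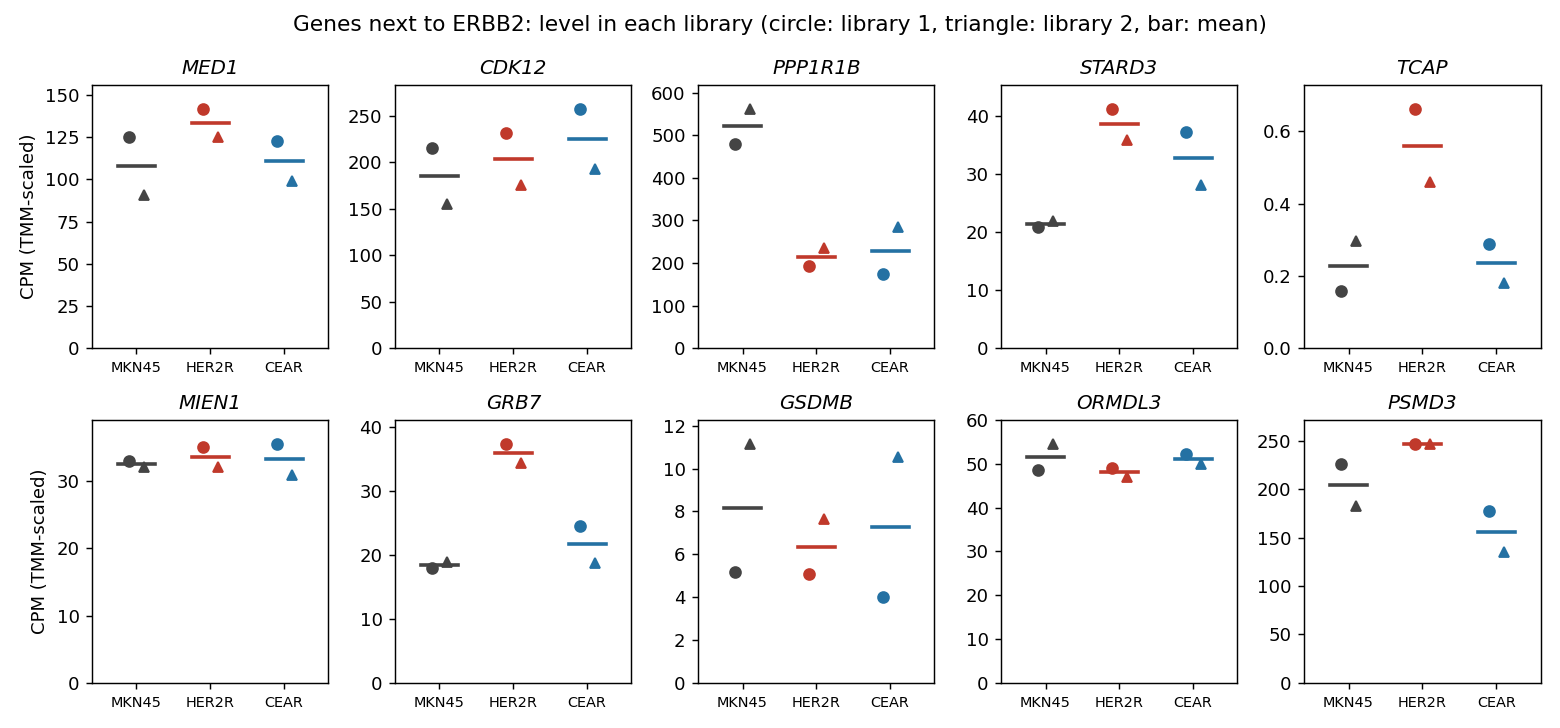
Level of each of the 10 genes (vertical axes, CPM from 0) in every library of MKN45, HER2R and CEAR, with circles for library 1, triangles for library 2 and bars for the mean of a line. PPP1R1B is highest in both MKN45 libraries, GRB7 in both HER2R libraries, and MIEN1 lies between 31.0 and 35.6 CPM in all 6.

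The comparison of HER2R with MKN45 asked whether the block beside the HER2 gene shifted in cells resistant to the HER2 bispecific. GRB7 and STARD3, on either side of ERBB2, rose to nearly double their MKN45 level, while PPP1R1B, the next gene beyond STARD3, fell by 1.28 on the log2 scale. MIEN1 and ORMDL3 differed little between the lines. In edgeR's quasi-likelihood test, with p-values adjusted over all 14958 genes by Benjamini and Hochberg's method, 2 of the 10 rose, 1 fell and 7 did not pass. Of all tested genes 9.74% were called in this comparison, 4.89% higher and 4.85% lower. The median log2 fold change over the 10 genes was 0.21, with members from -1.28 to 1.34, and over all tested genes it was -0.02. The median of the 10 was 0.09 without HER2R library 1, 0.10 without MKN45 library 2 and 0.42 without MKN45 library 1.

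GRB7, the adaptor, was at 17.9 and 18.9 CPM in MKN45 and at 37.4 and 34.3 CPM in HER2R. Both HER2R libraries lay above both MKN45 libraries. The log2 fold change was 0.96 (SE 0.180, edgeR adjusted p = 0.0261), or 1.95-fold. It was called in 9 of 9 alternatives other than those that left out 1 library. The call rested on every library of both lines: the edgeR adjusted p was 0.0984 or 0.0926 with MKN45 library 1 or 2 removed and 0.155 or 0.121 with HER2R library 1 or 2 removed, at log2 fold changes from 0.90 to 1.02. STARD3, the cholesterol transporter, was at 20.9 and 21.9 CPM in MKN45 and at 41.2 and 35.9 CPM in HER2R, again with no overlap. Its log2 fold change was 0.85 (SE 0.183, edgeR adjusted p = 0.0378), or 1.80-fold. That call ended when low counts were kept (edgeR adjusted p = 0.0555), with MKN45 library 1 or 2 removed (0.125 or 0.120) and with HER2R library 1 or 2 removed (0.193 or 0.130), at values from 0.75 to 0.95.

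PPP1R1B, the phosphatase inhibitor, was at 480 and 562 CPM in MKN45 and at 194 and 235 CPM in HER2R. Both HER2R libraries lay far below both MKN45 libraries. The log2 fold change was -1.28 (SE 0.255, edgeR adjusted p = 0.0306). The call held in 9 of 9 alternatives other than those that left out 1 library. It ended with MKN45 library 1 or 2 removed (edgeR adjusted p = 0.0663 or 0.103) and with HER2R library 1 or 2 removed (0.176 or 0.130), at values from -1.43 to -1.15. Only 438 bases separate its annotated end from the start of STARD3, whose RNA went the other way. Of 4 markers of neurons, the cells in which PPP1R1B is best known, 3 were at 0 in every library. The remaining one, DRD1, the dopamine D1 receptor, was at 1.40 and 1.00 CPM in MKN45 and at 20.3 and 13.5 CPM in HER2R. For 9 markers of gastric and intestinal cells, the summed level was 283 and 881 CPM in MKN45 and 168 and 330 CPM in HER2R. In CEAR it was 231 and 709 CPM, and the lines overlapped. The part of DRD1 or of these markers in the result for PPP1R1B was not tested.

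The other 7 genes did not pass the test in HER2R. MIEN1, which shares exonic bases with ERBB2, was at 33.1 and 32.1 CPM in MKN45 and at 35.1 and 32.1 CPM in HER2R, and the libraries overlapped. Its log2 fold change was 0.04, with a 95% interval of -0.30 to 0.39 (edgeR adjusted p = 0.872). ORMDL3, the brake on sphingolipid synthesis, was at 48.6 and 54.6 CPM in MKN45 and at 49.1 and 47.0 CPM in HER2R. Its value was -0.10, with an interval of -0.41 to 0.21 (edgeR adjusted p = 0.650). The intervals of both genes lay below the fitted values of GRB7 and STARD3.

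CDK12, the elongation kinase, was at 215 and 155 CPM in MKN45 and at 232 and 176 CPM in HER2R (log2 fold change 0.14, 95% interval -0.43 to 0.70, edgeR adjusted p = 0.744). MED1, the Mediator subunit next to it, was at 125 and 90.8 CPM in MKN45 and at 142 and 125 CPM in HER2R (0.30, interval -0.17 to 0.78, edgeR adjusted p = 0.362). In both genes library 1 was the higher one in each line, and the lines overlapped. With the replicate block, a fit with the library number as a term, MED1 passed the test at 0.32 (edgeR adjusted p = 0.0496, and 0.0496 to 0.841 over its alternatives). PSMD3, the proteasome lid subunit, was at 225 and 183 CPM in MKN45 and at 246 and 247 CPM in HER2R, without overlap and without passing the test (0.27, 95% interval -0.16 to 0.70, edgeR adjusted p = 0.364).

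GSDMB, the gasdermin, varied more between libraries of a line than between lines, at 5.17 and 11.2 CPM in MKN45 and 5.07 and 7.63 CPM in HER2R (log2 fold change -0.35, 95% interval -1.67 to 0.96, edgeR adjusted p = 0.716). TCAP, the muscle protein, was near the lower limit of measurement, with 9 and 13 counts in MKN45 and 26 and 18 in HER2R. Both HER2R libraries were the higher ones, at 0.662 and 0.459 CPM against 0.159 and 0.296 CPM, and the value was 1.34 (interval -0.03 to 2.71, edgeR adjusted p = 0.183). The summed level of 6 markers of striated muscle was 0.177 to 0.273 CPM in MKN45, 0.382 to 0.536 CPM in HER2R and 0.193 to 0.764 CPM in CEAR, of which MYL2 and MYOG were at 0 in every library. Their part in the TCAP value was not tested. ERBB2, set between TCAP and MIEN1, was at 103 and 126 CPM in MKN45 and at 88.2 and 78.8 CPM in HER2R (-0.46, interval -0.95 to 0.04, edgeR adjusted p = 0.203). Its libraries did not overlap, and it lay on the other side of 0 from GRB7 and STARD3.

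**Figure D2:**
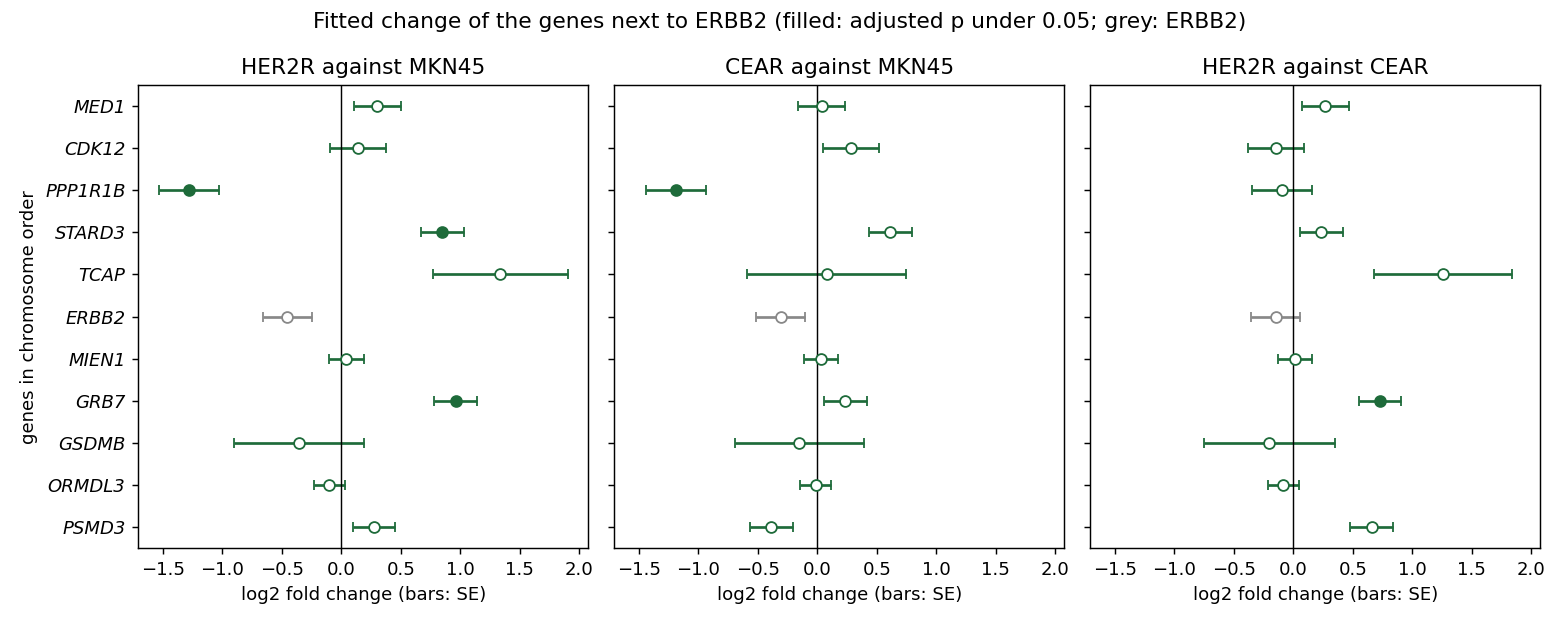
Fitted log2 fold change with its SE (horizontal axis) for the 10 genes and ERBB2 in chromosome order (vertical axis), in 3 panels, one per comparison; filled points have an edgeR adjusted p under 0.05. In HER2R against MKN45, PPP1R1B at -1.28 and STARD3 at 0.85 are neighbours on opposite sides of 0.

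The comparison of CEAR with MKN45 gives the same genes in a line selected against another antigen, and it shares the MKN45 libraries with the comparison above. PPP1R1B was lower in CEAR as well, and no other of the 10 genes passed the test. STARD3 was higher in both CEAR libraries than in either MKN45 library without passing, and GRB7 overlapped with MKN45. In edgeR's test 0 of the 10 rose, 1 fell and 9 did not pass, while 1 would be higher at an unadjusted p under 0.05 and 1 in DESeq2, STARD3. The background was 6.19% of all tested genes called, 2.57% higher and 3.62% lower. The median log2 fold change over the 10 was 0.03 (range -1.19 to 0.62), and over all tested genes it was 0.00. The median of the 10 had no stable direction, at -0.06 without CEAR library 1, -0.02 without MKN45 library 1, 0.06 without MKN45 library 2 and 0.16 without CEAR library 2.

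PPP1R1B was at 173 and 284 CPM in CEAR, below both MKN45 libraries, with a log2 fold change of -1.19 (SE 0.254, edgeR adjusted p = 0.0471). The CEAR call of PPP1R1B was held by 6 of 9 alternatives other than those that left out 1 library. With the replicate block its edgeR adjusted p was 0.000709. It was lost with no filter (0.0671), the legacy method (0.0515) and the compared lines alone (0.0935). It held at -1.59 with CEAR library 2 removed. It ended with MKN45 library 1 or 2 removed (edgeR adjusted p = 0.0934 or 0.150), with HER2R library 1 or 2 removed (0.0929 or 0.0921) and with CEAR library 1 removed (0.133, at -0.87). DRD1 was at 10.8 and 10.2 CPM in CEAR.

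STARD3 was at 37.3 and 28.2 CPM in CEAR, above both MKN45 libraries (log2 fold change 0.62, SE 0.182, edgeR adjusted p = 0.103). It passed with the replicate block (edgeR adjusted p = 0.0149) and in DESeq2 (adjusted p = 0.0383), with 0.0149 to 0.402 over its alternatives. GRB7 was at 24.6 and 18.7 CPM in CEAR (0.23, 95% interval -0.20 to 0.67, edgeR adjusted p = 0.499), and the second CEAR library lay within the MKN45 range. PSMD3 was at 177 and 135 CPM, below both MKN45 libraries (-0.39, edgeR adjusted p = 0.261). With the replicate block PSMD3 passed (edgeR adjusted p = 0.0476, range 0.0476 to 0.674).

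MIEN1 was at 35.6 and 31.0 CPM in CEAR, on both sides of the MKN45 libraries (log2 fold change 0.03, 95% interval -0.32 to 0.38, edgeR adjusted p = 0.934). ORMDL3, at 52.3 and 49.9 CPM, lay between them (-0.02, interval -0.33 to 0.30, edgeR adjusted p = 0.964). CDK12 was at 257 and 193 CPM (0.28, edgeR adjusted p = 0.541) and MED1 at 123 and 98.8 CPM (0.04, edgeR adjusted p = 0.945). Again library 1 was the higher one in each line. GSDMB was at 4.02 and 10.5 CPM (-0.15, edgeR adjusted p = 0.908), and TCAP had 12 and 8 counts (0.08, edgeR adjusted p = 0.964). ERBB2 was at 75.6 and 109 CPM (-0.31, edgeR adjusted p = 0.428) and overlapped with MKN45.

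The comparison of HER2R with CEAR tests directly where the resistant lines differed. GRB7 was higher in HER2R by 1.66-fold, and no other of the 10 genes passed. PPP1R1B, low in both lines, did not differ beyond the spread of its libraries. In edgeR's test 1 of the 10 was higher, 0 were lower (0 also at an unadjusted p under 0.05 and in DESeq2) and 9 did not pass, against 14.1% of all tested genes called, 7.32% higher and 6.75% lower. The median log2 fold change over the 10 was 0.12 (range -0.20 to 1.26), and over all tested genes it was 0.00. The median of the 10 moved to 0.02 with a filter at 1 CPM, which removed TCAP, and to 0.20, 0.27 and 0.21 without HER2R library 2, CEAR library 1 and CEAR library 2.

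The log2 fold change of GRB7 between the resistant lines was 0.73 (SE 0.179, edgeR adjusted p = 0.0442), with both HER2R libraries above both CEAR libraries. The GRB7 call was held by 6 of 9 alternatives other than those that left out 1 library. It was lost with library size alone (edgeR adjusted p = 0.0645), no filter (0.0622) and the compared lines alone (0.0598). It was lost with library 1 or 2 of MKN45 removed (edgeR adjusted p = 0.0647 or 0.0613), of HER2R removed (0.194 or 0.153) and of CEAR removed (0.0729 or 0.191), at values from 0.54 to 0.93. PSMD3 gave 0.66 (SE 0.179, edgeR adjusted p = 0.0573) with no overlap, and it passed with the replicate block (edgeR adjusted p = 0.00374) and in DESeq2 (adjusted p = 0.0110), in a range of 0.00374 to 0.244. STARD3 gave 0.24 (95% interval -0.20 to 0.67, edgeR adjusted p = 0.417) and PPP1R1B -0.09 (interval -0.70 to 0.51, edgeR adjusted p = 0.830). For MIEN1 the value was 0.01 (interval -0.33 to 0.36) and for ORMDL3 -0.09 (interval -0.40 to 0.22). MED1 (0.27, edgeR adjusted p = 0.397), CDK12 (-0.14, 0.716), TCAP (1.26, 0.193) and GSDMB (-0.20, 0.834) did not pass.

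Counted by overlap alone, 5 of the 10 genes had no overlap between HER2R and MKN45 (4 higher and 1 lower in HER2R), 3 between CEAR and MKN45 (1 higher, 2 lower) and 5 between HER2R and CEAR (4 higher, 1 lower). Of all tested genes 57.1%, 50.6% and 61.4% had none. With the replicate block 4, 3 and 2 of the 10 were called, against 33.7%, 25.8% and 38.2% of all tested genes. None of these counts over 10 genes is read as a result about them.

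The wider neighbourhood was read for the same sign of a common shift. Within 1 Mb of the ERBB2 start, 30 further genes were tested. In HER2R against MKN45 0 rose and 0 fell among these 30 in edgeR's test, while 6 were higher and 2 lower at an unadjusted p under 0.05, and DESeq2 called 2 higher, RPL19 and WIPF2. Of all tested genes 9.74% were called there. Of the 30 genes and the 10 together, 27 of 40 had a fitted value above 0, and the median of the 40 was 0.23, or 0.14 for the 21 within 0.5 Mb. Genes next to each other differed by a median of 0.41 on the log2 scale, over 40 pairs of neighbours with ERBB2 included, and 18 of those pairs lay on opposite sides of 0. The same measures were 0.29 and 13 pairs in CEAR against MKN45, and 0.39 and 16 pairs in HER2R against CEAR. They were not computed for genes elsewhere, so no background stands beside them. The pairs include genes near the lower limit of measurement, such as SNORA21 with 10 to 19 counts. PGAP3 remodels GPI anchors, and its gene overlaps the start of ERBB2 on the other strand. It gave -1.12 in HER2R against MKN45 (edgeR adjusted p = 0.154), at 16.9 and 37.5 CPM in MKN45 and 11.3 and 13.8 CPM in HER2R. The values of the 30 genes ran from that of PGAP3 to 1.68 for TNS4 (edgeR adjusted p = 0.132). In CEAR against MKN45 1 of the 30 was called (3.33% against 6.19% of all tested genes), RAPGEFL1, a guanine nucleotide exchange factor-like gene (14.3 and 24.0 CPM in MKN45, 3.85 and 5.33 CPM in CEAR, log2 fold change -2.06, edgeR adjusted p = 0.0187), and the median of the 40 was -0.03. In HER2R against CEAR 5 of the 30 were higher (16.7% against 7.32% of all tested genes) and 0 lower in edgeR's test. At an unadjusted p under 0.05, 9 were higher and 0 lower, and DESeq2 called 6 higher and 0 lower. Of the 5 that edgeR called, up to 4 per direction are named by size, RAPGEFL1 (1.26, edgeR adjusted p = 0.0466), the ribosomal protein genes RPL19 (0.66, 0.0363) and RPL23 (0.66, 0.0367), and PSMB3, a proteasome core subunit (0.55, 0.0437). The fifth was WIPF2 (0.49, 0.0400), a WASP-interacting protein, which like PGAP3 and TNS4 was named after its value was seen. RAPGEFL1, at 10.5 and 11.5 CPM in HER2R, lay below both MKN45 libraries there (-0.80 in HER2R against MKN45, edgeR adjusted p = 0.140).

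**Figure D3:**
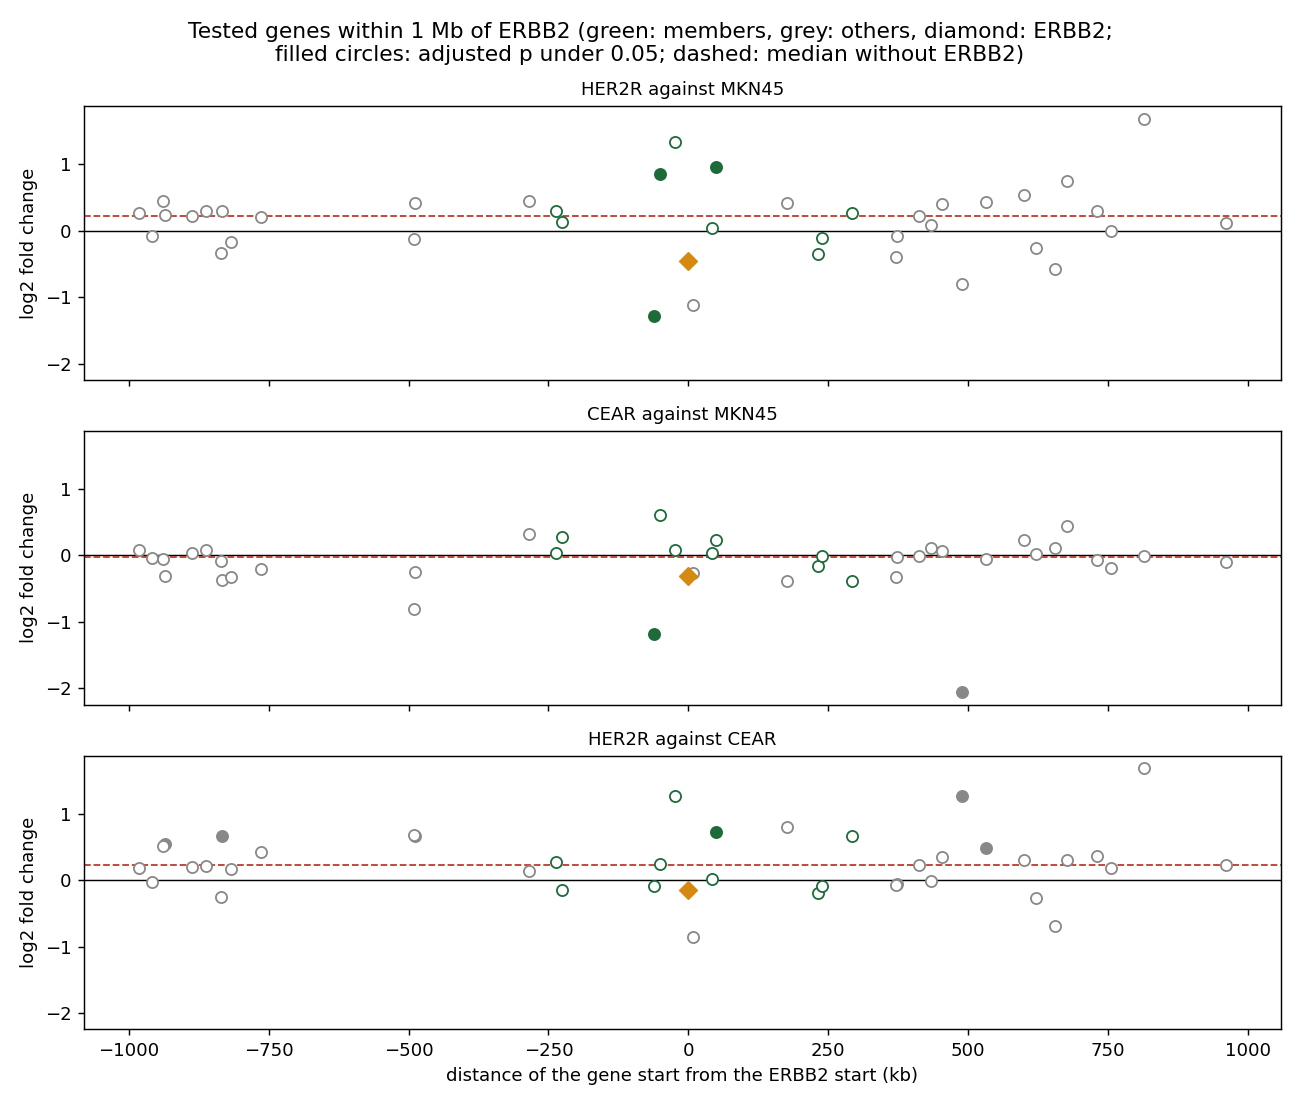
Fitted log2 fold change (vertical axis) of every tested gene within 1 Mb of ERBB2 against the distance of its start from the ERBB2 start in kb (horizontal axis), in 3 panels, one per comparison; green points are the 10 genes, grey points the other 30, the diamond is ERBB2, filled circles have an edgeR adjusted p under 0.05 and the dashed line is the median of the 40. The dashed line is at 0.23 in HER2R against MKN45 and at -0.03 in CEAR against MKN45, and the genes nearest to ERBB2 spread to both sides of it.

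The small upward median in HER2R extended over the long arm of chromosome 17. Outside the window of 1 Mb, 539 tested genes of the long arm had a median log2 fold change of 0.24 in HER2R against MKN45, and 71.1% of them had a value above 0, against 48.7% of all tested genes. Of the 539, 40 rose (7.42% against 4.89% of all tested genes) and 3 fell (0.557% against 4.85%). In this comparison the medians of the 10 genes (0.21) and their 30 neighbours (0.23) were close to that of the arm. The median of the 10 ranged from 0.09 to 0.42 without 1 library, and the 21 genes within 0.5 Mb gave 0.14. In HER2R against CEAR the long arm median was 0.25, against 0.12 for the 10 and 0.23 for the 30. In CEAR against MKN45 the long arm median was -0.01, with 46.6% above 0, and it moved with all genes under library size alone (to 0.06, where the median of all tested genes shifted by 0.07). By library, the long arm median after centring each gene on its mean stood at 0.18 and 0.14 in HER2R, -0.06 and -0.08 in MKN45, and -0.07 and -0.09 in CEAR. For the 10 genes the same measure gave 0.24 and 0.14 in HER2R, -0.02 and -0.08 in MKN45, and 0.04 and -0.09 in CEAR. In both sets the HER2R libraries were the highest and did not overlap with the others. Of all tested genes, 57.1% had no overlap between HER2R and MKN45, and 61.4% between HER2R and CEAR, in either direction. The measure by library was not computed for other chromosomes.

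In bins of 5 Mb around ERBB2, 12 of 12 long-arm bins had a median above 0 in HER2R against MKN45, from 0.09 to 0.49, and 3 of these bins held under 20 genes. The bin with ERBB2 at its centre had 71 other genes and a median of 0.24. The short arm was divided. Its bins centred 25 and 20 Mb before ERBB2 had medians of 0.54 and 0.58, and those 35 and 30 Mb before it had -0.13 and -0.07. In CEAR 4 of 12 long-arm bins were above 0, from -0.20 to 0.12. Chromosome 17 was not alone in this. Medians of whole chromosomes in HER2R against MKN45 ran from -0.45 on chromosome 13 to 0.25 on chromosome 10, and chromosome 17, at 0.21, ranked 2 of 23 from the highest. In CEAR against MKN45 it ranked 15 of 23, at -0.02, in a range from -0.45 on chromosome 13 to 0.34 on chromosome 15. Copy number was not measured, and its part in these medians was not tested.

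**Figure D4:**
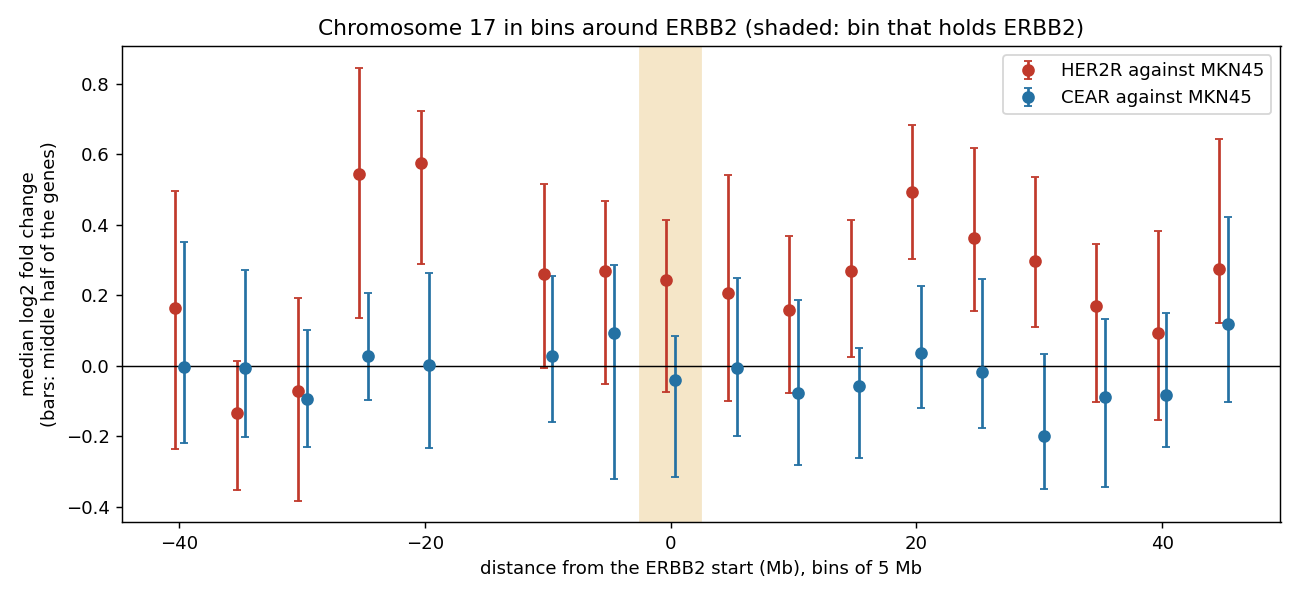
Median log2 fold change (vertical axis) of the tested genes in bins of 5 Mb along chromosome 17, by distance from the ERBB2 start in Mb (horizontal axis), for HER2R and CEAR against MKN45; bars span the interquartile range of a bin and the shaded bin holds ERBB2. HER2R lies above 0 in all 12 long-arm bins, the bin of ERBB2 at 0.24 among them, while CEAR lies near 0.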

How the data were processed

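RNA of 3 cultured lines was sequenced in 6 libraries, 2 per line. Per the labels' protocols, libraries were stranded total RNA with Ribo-Zero Plus depletion. GRCh38 and limma are named, with no role, per the submitters' processing notes. Which aligner, counter and annotation were used is not given in the sources used here. For each gene symbol, the authors deposited unnormalized counts. The 10 genes, the lists and the tests were chosen with earlier results of these data known.

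edgeR 4.0.16 in R 4.3.3 was run with filterByExpr (minimum count 10), scaling by TMM and a quasi-likelihood fit of 6 libraries by line, and genes were called at a Benjamini-Hochberg adjusted p under 0.05. The SE divides the log2 fold change by the root of F. Intervals (95%) use the total degrees of freedom of the test. The code was tested on simulated data.

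GENCODE 29 gave positions to 22640 of 29744 symbols, and exonic length is the union of a gene's exons. Windows count gene starts within 1 Mb of the ERBB2 start. The arms were divided at the longest stretch without a protein-coding start. The named genes were the 10, ERBB2, and up to 4 called genes per direction and comparison of the window and per comparison of each list of complex partners and relatives, by size of change.

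Library 2 minus library 1 (log2 of CPM + 0.5) was correlated between lines across the tested genes (genes are not replicates), with coefficients of 0.447 (MKN45 with HER2R), 0.629 (MKN45 with CEAR) and 0.466 (HER2R with CEAR). The labels do not say what the number means. The fit with the number as a term, the replicate block, is given beside results it changes. Other alternatives were DESeq2 1.42.0, limma-voom (limma 3.58.1), edgeR's legacy method, RLE factors, library size alone, all genes unfiltered, a filter at 1 CPM in 2 libraries, the compared lines alone, windows of 0.5 and 2 Mb, and each library left out in turn. A line with a lone library is then taken to vary as the rest do. The alternatives for the long arm were chosen after seeing the data.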

Additional observations from a re-analysis of the deposited data

How the results depend on the processing

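Member counts rest on 2 libraries per line. With the replicate block, the fit with the library number as a term, 5040 genes were called in HER2R against MKN45 (1457 without it), 3861 in CEAR against MKN45 (926) and 5717 in HER2R against CEAR (2105). DESeq2 called 2820, 2098 and 3432, and the compared lines alone left 405 in CEAR against MKN45. Leaving out each library gave 189 to 1136, 253 to 428 and 103 to 1856 calls. The cause of these differences was not tested, except that a fit without 1 library has fewer samples. Among the 10 genes the block added MED1, STARD3 and PSMD3 where the report says so, and it changed no other call. Depth limits TCAP most, with at most 26 counts in a library.

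The median of the 10 genes ranged over the fits without 1 library from 0.0898 to 0.42 in HER2R against MKN45, -0.0601 to 0.16 in CEAR against MKN45 and 0.0935 to 0.27 in HER2R against CEAR. Library size alone shifts the median of all tested genes by 0.07 in CEAR against MKN45 and by -0.07 in HER2R against CEAR, and with it the median of the 10 was 0.11 and 0.0487, a move of about the same size. With the filter at 1 CPM it was 0.0198 in HER2R against CEAR. The neighbours' median in HER2R against MKN45 was 0.14 in a window of 0.5 Mb. The long arm median, without 1 library, ranged from 0.19 to 0.26, from -0.0475 to 0.0048 and from 0.20 to 0.26 in these 3 comparisons, and with library size alone, whose common shift it followed, it was 0.058 in CEAR against MKN45 and 0.17 in HER2R against CEAR.

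Of the values of the 10 genes and ERBB2 under the alternatives, 431 kept their direction and their side of the threshold, 30 lost the call, 6 gained it and 25 changed sign, all 25 of values that had not passed. In HER2R against MKN45 those without 1 library were CDK12 (-0.0852 to 0.40), MIEN1 (-0.0259 to 0.11) and GSDMB (-0.81 to 0.29). In CEAR against MKN45 they were MED1 (-0.18 to 0.29), TCAP (-0.33 to 0.53), MIEN1 (-0.072 to 0.13), GSDMB (-1.01 to 0.49) and ORMDL3 (-0.0898 to 0.0671, and 0.0557 with library size alone). In HER2R against CEAR they were CDK12 (-0.36 to 0.0768), PPP1R1B (-0.41 to 0.30), MIEN1 (-0.0879 to 0.11, -0.0622 with library size alone and -0.0026 with no filter), GSDMB (-0.74 to 0.65) and ERBB2 (-0.39 to 0.14). With all libraries, the 95% interval of each of these values included 0.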

Other observations

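Complex partners and relatives of the 10 genes, nearly all from other loci, were read from lists. The background is the share of all tested genes called, given above for each comparison. Of 31 tested Mediator genes other than MED1, 1 rose, 0 fell and 30 did not pass edgeR's test in HER2R against MKN45, with a median log2 fold change of -0.03. At an unadjusted p under 0.05, 2 were lower, and DESeq2 called 1 lower, MED4, named after its value was seen. The gene that rose was MED17, a subunit of the Mediator head (91.7 and 42.1 CPM in HER2R and MKN45, a log2 fold change of 1.12 at an edgeR adjusted p of 0.00679), and it was also higher in HER2R than in CEAR (0.83). In CEAR against MKN45, CCNK, the cyclin partner of CDK12, fell (31.5 against 53.5 CPM, -0.76, edgeR adjusted p = 0.0290), 1 of 6 tested genes of that list, and in HER2R against CEAR CCNK was higher (0.72, edgeR adjusted p = 0.0251). Of 17 genes of the proteasome's regulatory particle other than PSMD3, 0 passed edgeR's test in either line against MKN45 (7 and 3 at an unadjusted p under 0.05, 3 and 1 in DESeq2), and 2 were higher and 1 lower in HER2R than in CEAR (PSMC5 at 0.64, PSMD4 at 0.54 and PSMD13 at -0.51). PPP1CB, a catalytic subunit of the phosphatase that PPP1R1B inhibits, rose in HER2R (287 against 161 CPM, 0.83, edgeR adjusted p = 0.0180), 1 of 4 genes of that list. PPP1CB (0.94) and the catalytic subunit PPP1CA (0.53) were higher in HER2R than in CEAR. GRB10, an adaptor of the GRB7 family, was higher in HER2R than in CEAR (1.72, edgeR adjusted p = 0.0336). Against MKN45 its value in HER2R was 1.13, which DESeq2 called higher and edgeR did not (edgeR adjusted p = 0.108). GSDMC, a gasdermin encoded on another chromosome, stood at 0.446 CPM in HER2R, 0.0316 CPM in MKN45 and 0.0120 CPM in CEAR. It passed the filter on low counts through HER2R alone, so its edgeR calls there (adjusted p = 0.0257 against MKN45, 0.0197 against CEAR) support nothing, and DESeq2 called 0 gasdermins in HER2R against MKN45. VAPB, from the list of STARD3 relatives and partners, was lower in HER2R than in CEAR (-0.70, edgeR adjusted p = 0.0321). SPTLC3, a subunit of serine palmitoyltransferase, which ORMDL3 restrains, was at 2.23 CPM in HER2R and 0.0449 CPM in CEAR (edgeR adjusted p = 0.0318). In MKN45 it was at 1.09 CPM. Against MKN45 SPTLC3 did not pass edgeR's test in HER2R (1.12, edgeR adjusted p = 0.351) or in CEAR (-4.39, 0.119), and DESeq2 called it lower in CEAR.

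The library number moved with some of the 10 genes. Library 2 was below library 1 in all 3 lines for CDK12 (log2 difference -0.47 in MKN45, -0.40 in HER2R, -0.42 in CEAR), MED1 (-0.46, -0.18, -0.31) and MIEN1 (-0.04, -0.13, -0.20), as for 25.3% of all tested genes. It was above library 1 in all 3 for GSDMB (1.04, 0.55, 1.29) and PPP1R1B (0.23, 0.27, 0.71), as for 26.9% of all tested genes. Its part in the results was not tested beyond the replicate block.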
